A study of Saccharomyces cerevisiae with 2 samples.

Results

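The genes described here are the 5 of guanine nucleotide synthesis, IMD2 (YHR216W), IMD3 (YLR432W), IMD4 (YML056C), GUA1 (YMR217W) and GUK1 (YDR454C), found by systematic name among the 6692 genes counted in each library. RNA-seq was performed on budding yeast of strain yJL59a, with 2 libraries, labelled replicates 1 and 2, of 1 group under methionine depletion. The label lists MATa with ade2-1, can1-100, trp1-1 and ura3-1, further auxotrophic alleles at LEU2 and HIS3, and 2 constructs driven by the MET3 promoter, CWC23::MET3pr-GFP::KanMX and CDC20::MET3pr-mCherry::URA3. Per the methods the strain is of the w303 background, was grown with methionine, washed and then grown without it, and mRNA was captured on beads. No library from cells with methionine was used here, so the values are levels within 1 condition and none is a response to methionine.

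Replicate 1 held 34052011 counts and replicate 2 held 35367508 counts. The mating type markers go against the MATa of the label: 5 a-specific genes stood between 4.49 and 12.0 FPKM and 4 alpha-specific genes between 229.9 and 2401 FPKM. The libraries thus show the marker pattern of alpha cells, and the reason for the mismatch was not tested. FPKM, counts per kilobase of coding sequence and per 1000000 counts of the library, was computed here so that genes of different length can be set side by side. Values with ± are the mean and SD of the 2 libraries.

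Guanine nucleotides are made from inosine monophosphate (IMP), the branch point of purine synthesis. IMP dehydrogenase, encoded by the IMD genes, oxidises IMP to xanthosine monophosphate and is the rate-limiting enzyme of the pathway. GMP synthase, encoded by GUA1, adds an amino group to give GMP, and guanylate kinase, encoded by GUK1, phosphorylates GMP to GDP, which nucleoside diphosphate kinase turns into GTP. Yeast is known for its several IMP dehydrogenases, of which Imd2 resists the drug mycophenolic acid, while IMD2 transcription rises when guanine nucleotides run short. The ade2-1 allele of the label blocks purine synthesis before IMP, and such strains make IMP from adenine taken up from the medium.

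The 3 IMP dehydrogenase genes are similar enough that single 50-base reads, the length given in the methods, cannot always be told apart. Reads were paired, and a mate outside a shared stretch can place a pair. The shares of windows given below score reads singly and can overstate the ambiguity. The proteins encoded by IMD2 and IMD3 are 523 residues each and 92.5% identical, those of IMD3 and IMD4 are 88.9% identical, and those of IMD2 and IMD4, which has 524 residues, are 84.2% identical. IMD2 has a further copy on chromosome I, at 227742 to 229317 of the R64 assembly, that is 96.3% identical over 1576 aligned bases and whose reading frame stops after 403 codons. The annotation used here places no gene at that position and names YAR073W and YAR075W as the paralog of IMD2. The first set of lines below shows the 60 bases of coding sequence in which the 4 sequences are most alike, in lower case with capitals at bases that differ from IMD2, taken from the RefSeq R64 assembly.
IMD2, chrVIII:555615-555674, plus strand: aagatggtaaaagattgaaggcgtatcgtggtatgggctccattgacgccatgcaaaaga
Copy of IMD2, chrI:228965-229024, plus strand: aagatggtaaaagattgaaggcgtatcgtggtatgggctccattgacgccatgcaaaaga
IMD3, chrXII:1003776-1003835, plus strand: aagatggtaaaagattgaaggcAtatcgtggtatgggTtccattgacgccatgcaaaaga
IMD4, chrXIII:162487-162546, minus strand: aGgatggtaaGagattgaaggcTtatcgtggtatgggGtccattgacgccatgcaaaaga
In this stretch the copy has 0 differences from IMD2, IMD3 has 2 and IMD4 has 4.

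The 60 bases in which the 4 sequences differ most lie near the start codon, and show where a read can be assigned.
IMD2, chrVIII:554418-554477, plus strand: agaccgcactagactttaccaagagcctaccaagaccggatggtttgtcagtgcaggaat
Copy of IMD2, chrI:227764-227823, plus strand: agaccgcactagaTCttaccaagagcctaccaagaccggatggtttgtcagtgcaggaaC
IMD3, chrXII:1002579-1002638, plus strand: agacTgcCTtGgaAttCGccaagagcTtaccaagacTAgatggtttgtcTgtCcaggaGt
IMD4, chrXIII:164092-164151, minus strand: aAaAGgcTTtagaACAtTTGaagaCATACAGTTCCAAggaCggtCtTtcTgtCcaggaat
Here the copy differs from IMD2 at 3 bases, IMD3 at 13 and IMD4 at 29. Over the whole coding sequence, 33.7% of the 50-base windows of IMD2 occur elsewhere in the genome, against 16.6% of those of IMD3 and 7.01% of those of IMD4. GUA1 and GUK1 have 0% of their windows elsewhere. The IMD2 windows are shared mostly with the chromosome I copy, which holds 443 of them, while IMD3 holds 122 and IMD4 holds 0. IMD3 and IMD4 share 107 windows, in runs of up to 139 identical bases.

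**Figure D1:**
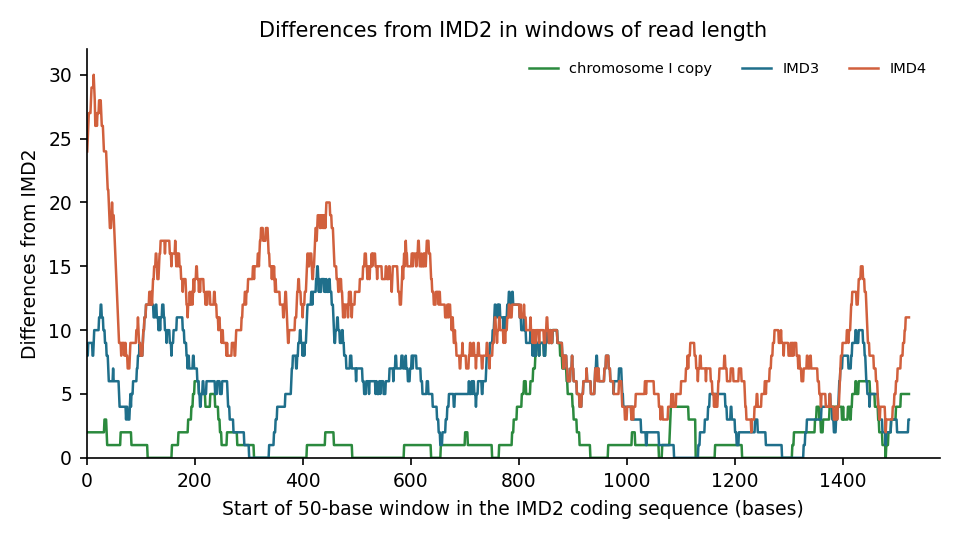
Differences from IMD2 (y axis, bases) in each 50-base window along its coding sequence (x axis, start of the window in bases) for the chromosome I copy (green), IMD3 (blue) and IMD4 (orange). The copy has a median of 1 difference per window, IMD3 of 5 and IMD4 of 10, and lines at 0 are windows in which a single read fits both sequences.

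IMD3 was the most abundant IMP dehydrogenase transcript, IMD4 came next and IMD2 was lowest, in both libraries. IMD3 (chromosome XII, 1002557 to 1004128, a single coding exon of 1572 bases) had 16441 and 14729 counts in replicates 1 and 2, or 307 and 265 FPKM. IMD4 (chromosome XIII, 162194 to 164176, minus strand) had 9217 and 9381 counts, or 172 and 168 FPKM. It is the one member with an intron, of 408 bases between coding exons of 460 and 1115 bases, and the intron holds the small nucleolar RNA gene SNR54. IMD2 (chromosome VIII, 554396 to 555967) had 3166 and 3090 counts, or 59.1 and 55.6 FPKM. The levels of the 3 isozyme genes did not overlap between any pair of them, and the gaps exceed the spread between the replicates.

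IMD3 stood 4.98 ± 0.301 times as high as IMD2 on the FPKM scale, with ratios of 5.19 in replicate 1 and 4.77 in replicate 2. IMD4 stood 2.97 ± 0.0880 times as high as IMD2, and IMD3 1.68 ± 0.151 times as high as IMD4. Of the summed FPKM of the 3 genes, 55.6% ± 2.04 belonged to IMD3, 33.2% ± 1.78 to IMD4 and 11.2% ± 0.267 to IMD2. No test was made on 2 libraries of 1 group, and a ratio within a library does not depend on how libraries are scaled. Where each count was divided by the windows that occur once in the genome, IMD2 stood at 89.3 FPKM, the IMD3 to IMD2 ratio was 3.96 and the IMD4 to IMD2 ratio 2.12, with the 3 genes in the same order.

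Few counts were given to the copy of IMD2. YAR073W had 10 and 15 counts and YAR075W had 13 and 0 counts in replicates 1 and 2, together 23 and 15. For reads placed singly, an even split over windows common to IMD2 and the copy would have placed 539 and 526 counts there. Pairs placed by a mate would lower these numbers. How reads that fit several places were treated is not given in the sources used here, and the strain is not the one of the assembly. With the counts of YAR073W and YAR075W added to IMD2, the IMD3 to IMD2 ratio was 4.95.

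IMD2 was the only member near a chromosome end, 6.68 kb from the end of chromosome VIII, and the others lie at least 74.0 kb from an end. The 122 genes under 10 kb from an end had a median of 0.693 FPKM, and 6 of the 121 others stood above IMD2 at 57.4 ± 2.52 FPKM. A median of 72.7% of the windows of those 122 genes occur elsewhere in the genome, against 0% over all genes. Its annotated neighbours were lower, with 1.94 ± 0.0955 FPKM for PHO12, an acid phosphatase gene, and 0.0549 ± 0.0547 FPKM for YHR218W. Of their windows 87.2% and 97.2% occur elsewhere in the genome, so counts of these neighbours and of the genes near ends may be too low, and the part of this in the differences was not tested.

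The later steps of the pathway each rest on a single gene, and both genes stood above each IMP dehydrogenase gene. GUA1 (chromosome XIII, 701790 to 703367) had 24898 and 19406 counts, or 463 and 348 FPKM in replicates 1 and 2. GUK1 (chromosome IV, 1366264 to 1366827, minus strand) had 9112 and 8939 counts over a coding sequence of 564 bases, or 474 and 448 FPKM. The values of GUA1 and GUK1 overlapped between libraries, and the GUA1 to GUK1 ratio was 0.977 in replicate 1 and 0.776 in replicate 2. Neither overlapped the range of IMD3, the highest isozyme gene, and GUA1 stood 1.41 ± 0.139 times and GUK1 1.62 ± 0.104 times as high as IMD3. For GUA1 this depended on the length used. With windows found once in the genome as length, the means were 419 FPKM for GUA1 and 354 FPKM for IMD3, and their ranges overlapped.

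Summed over the 3 isozyme genes, the IMP dehydrogenase step reached 538 and 489 FPKM in replicates 1 and 2. This was 1.28 ± 0.173 times GUA1 and 1.11 ± 0.0306 times GUK1. On this scale the summed first step and the later steps lay within 1.41 times of each other in either library. The single isozyme genes ranged over 5.19 times in replicate 1 and 4.77 times in replicate 2. With windows found once in the genome as length, the summed level was 1.53 times GUA1 and 1.25 times GUK1. A reading frame of at least 100 codons on the opposite strand covers part of GUA1, of which 75.7% is free of such frames, and counts can be lost there if the authors' annotation holds it. The annotation used here has 0 bases of another gene there. If no read from the covered part had been counted, all counts of GUA1 over the free length would give 536 FPKM, which is an upper value and above GUK1, and a ratio of the summed IMD genes to GUA1 of 0.971. The other members are free of such frames.

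**Figure D2:**
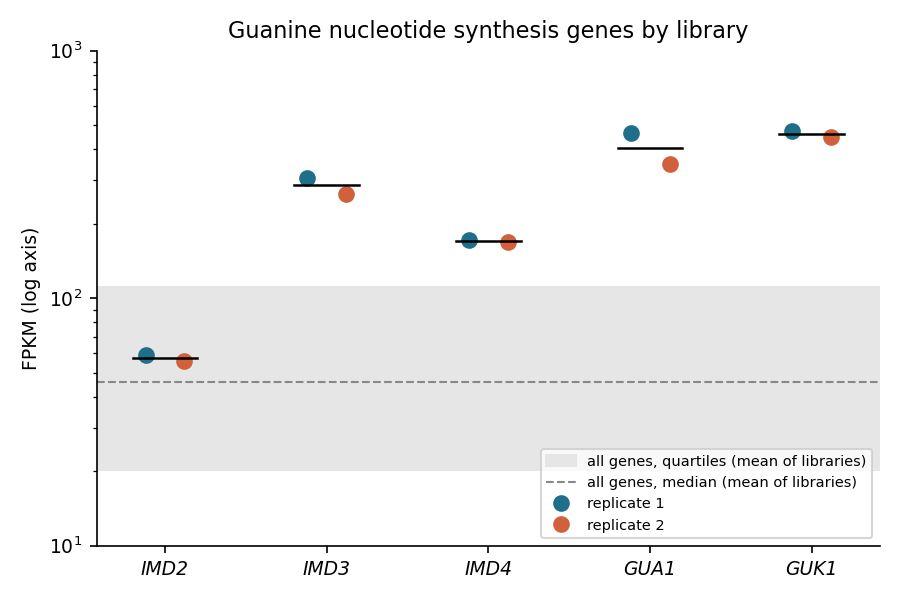
FPKM (y axis, log scale) of the 5 genes in replicate 1 (blue) and replicate 2 (orange), with black lines at the means. The grey band spans the quartiles of all genes and the dashed line is their median. IMD2 lies inside the band, and IMD3, IMD4, GUA1 and GUK1 lie above it in both libraries.

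Among all 6007 genes with a coding length, the median of the 5 members was 286 FPKM, and that of all genes 45.9 FPKM. All 5 of 5 stood above that median, as 50.0% of genes do by definition. Above the upper quartile in each library were 4 of 5, against 23.9% of genes, and IMD2 was the exception. GUK1 ranked at the 93.1 percentile and GUA1 at the 92.1 percentile, with IMD3 at the 89.1, IMD4 at the 82.6 and IMD2 at the 57.3 percentile. The 5 genes were chosen by function, with earlier results of these data known, and these shares were not tested.

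The replicates differed most for GUA1. On the log2(FPKM+1) scale, replicate 2 minus replicate 1, the difference was -0.41 for GUA1 and -0.21 for IMD3. It was -0.09 for IMD2, -0.08 for GUK1 and -0.03 for IMD4. All 5 members were lower in replicate 2, against 57.1% of genes, but the difference of IMD4 changed sign, to 0.0014 and 0.0033, when libraries were scaled by TMM or by size factors. By over 0.25 in that direction differed 1 of 5 members, GUA1, against 11.7% of genes. The median of all genes was -0.03, and 92.7% of genes had a smaller difference than GUA1 in either direction, against 77.4% for IMD3 and 15.8% for IMD4.

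The precision that the counts give was set beside these differences. The ratio of replicate 2 to replicate 1, each per library total, was 0.750 for GUA1 with an exact binomial 95% interval of 0.736 to 0.765, and 0.863 for IMD3 with 0.844 to 0.882. For IMD4 it was 0.980 with 0.952 to 1.01, for IMD2 0.940 with 0.894 to 0.988 and for GUK1 0.945 with 0.917 to 0.973. These intervals cover counting error only, and fewer molecules stand behind each count if both mates of a pair were counted. The coefficient of variation between the libraries was 20.2% for GUA1, 10.4% for IMD3 and between 1.43% and 4.40% for the other 3 genes.

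**Figure D3:**
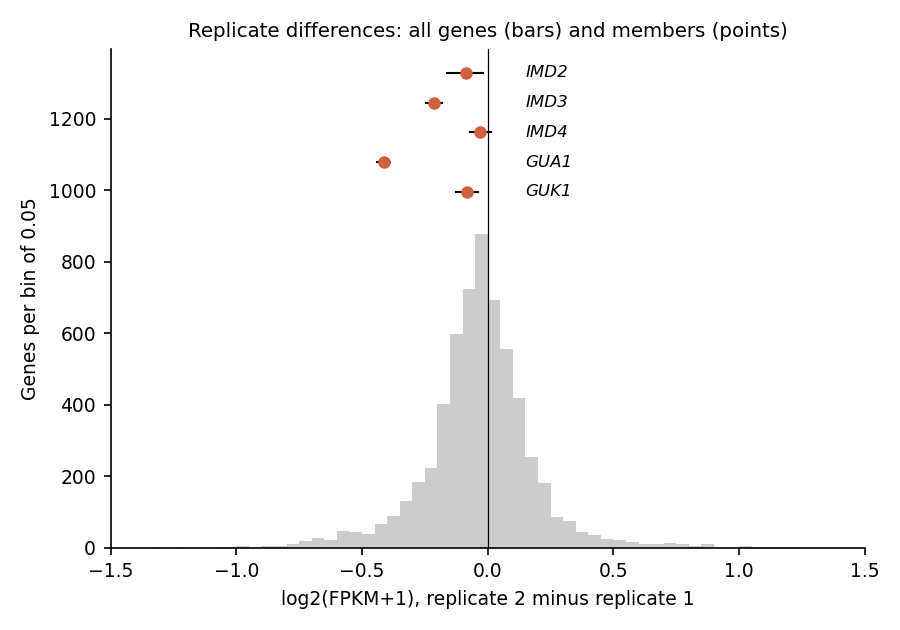
Number of genes (y axis, bars in bins of 0.05) by the difference of log2(FPKM+1) between replicate 2 and replicate 1 (x axis), for all 6007 genes. Orange points with black 95% counting intervals, drawn above the bars at no count, are the 5 members, of which GUA1 at -0.41 lies farthest from 0.

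The genes around the pathway were taken as a list of 29. It also holds adenine nucleotide enzymes, the suppliers of phosphoribosyl pyrophosphate and regulators. Of the 29, 25 stood above the all-gene median, as 50.0% of all genes do by definition. The list was chosen with earlier results of these data known, and the share was not tested. Its median was 167 FPKM over both libraries, with 181 FPKM in the first replicate and 156 FPKM in the second. YNK1, the nucleoside diphosphate kinase that follows GUK1, stood at 397 and 446 FPKM in replicates 1 and 2, near GUK1 in replicate 2 and below it in replicate 1. ADK1, adenylate kinase, was higher at 1069 ± 42.5 FPKM.

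Of the 5 genes that supply IMP or join it to AMP, 4 lay above the all-gene median. ADE13, adenylosuccinate lyase, stood highest of this group at 484 ± 77.6 FPKM. AMD1, the deaminase that returns AMP to IMP, was lowest at 34.4 ± 0.176 FPKM, below that median. Of the 8 salvage genes 7 lay above the median, from ADO1, adenosine kinase, at 731 ± 50.1 FPKM to GUD1, guanine deaminase, at 37.5 ± 1.31 FPKM.

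Among genes that use GTP for cofactors, FOL2, which opens folate synthesis, stood at 351 ± 3.03 FPKM and RIB1, which opens riboflavin synthesis, at 185 ± 5.76 FPKM. Of the nucleotide hydrolases, HAM1, which removes inosine triphosphate, was highest at 91.8 ± 10.8 FPKM and the apyrase gene YND1 lowest at 38.4 ± 1.14 FPKM. All 5 PRS genes, which supply phosphoribosyl pyrophosphate to purine synthesis and salvage, lay above the median, from PRS1 at 169.8 ± 15.2 FPKM to PRS4 at 68.7 ± 9.07 FPKM. Of the regulators, GCN4, the activator of amino acid synthesis genes, stood at 1422 ± 34.8 FPKM and BAS1, an activator of purine synthesis genes, at 15.7 ± 0.270 FPKM. GCN4 is also controlled in translation, so its RNA level does not give its activity.

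Of the list, 22 of 29 genes were lower in replicate 2, against 57.1% of all genes. The list's median difference was -0.11 against -0.03 for all genes. By over 0.25 differed 6 of 29 downward, and 0 upward, against 11.7% and 6.24% of all genes. FCY2, the purine and cytosine permease, differed by -0.42, with 191 and 143 FPKM in replicates 1 and 2. The others, of which AAH1, ADE17 and HPT1 were named after their values were seen, included the adenine deaminase gene AAH1 at 151 and 98.7 FPKM, a difference of -0.61. ADE17, which forms IMP, had 499 and 376 FPKM, a difference of -0.41 like that of GUA1. HPT1, which makes IMP and GMP from bases, had 256 and 196 FPKM, a difference of -0.39. ADE16, the isozyme of ADE17 and also named afterwards, stood at 270 and 299 FPKM, a difference of 0.15 in the other direction. With 1 library per replicate these differences belong to the libraries, and no cause was tested.

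**Figure D4:**
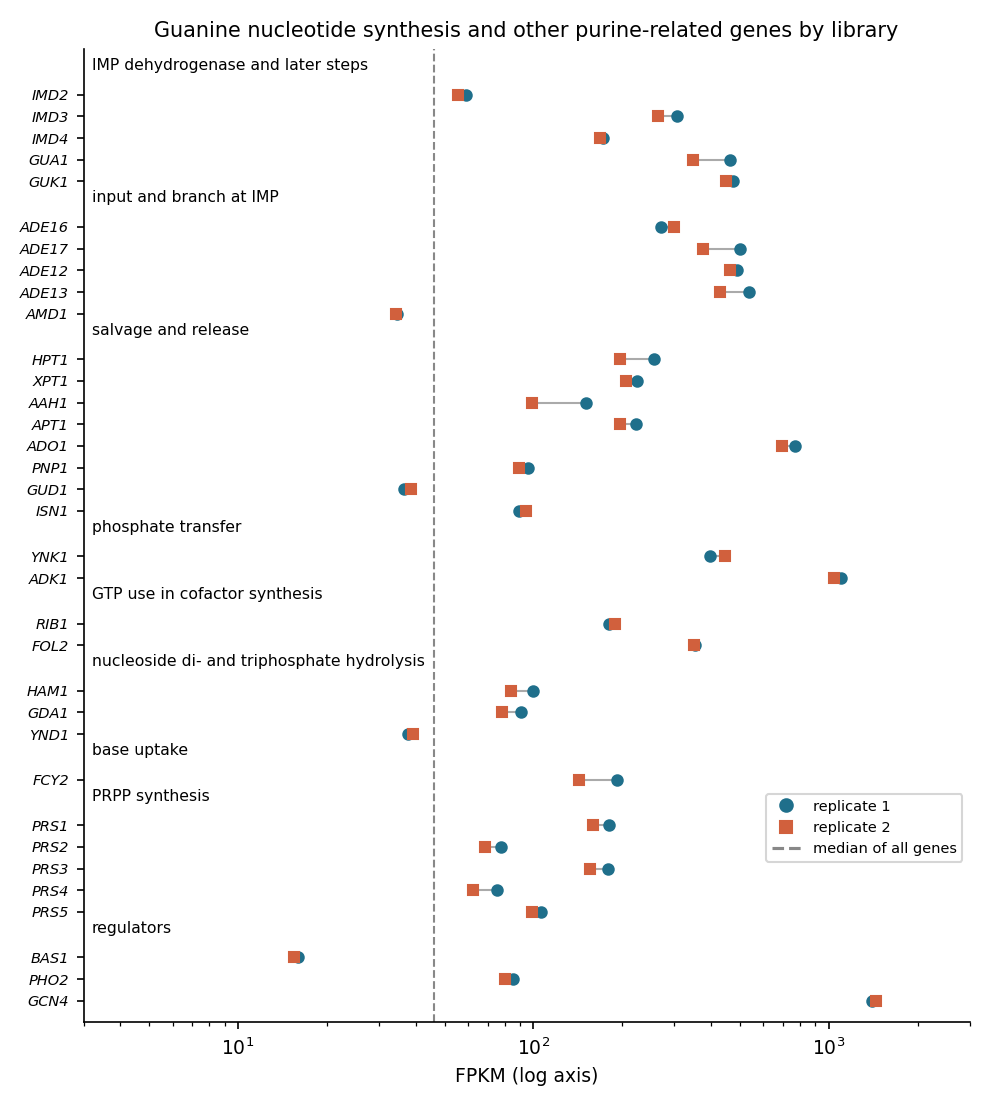
FPKM (x axis, log scale) of the 5 members and the 29 listed genes, by role, in replicate 1 (blue circles) and replicate 2 (orange squares), with a dashed line at the all-gene median. AMD1, GUD1, YND1 and BAS1 are the 4 genes left of the line, and AAH1 has the widest gap between libraries.

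The genes nearest in level to each member, by Euclidean distance of log2(FPKM+1) over the 2 libraries, were of varied kinds. They were PNG1 and YAP5 for IMD2, RPL33A and HRI1 for IMD3, LSO2 and DIA1 for IMD4, TIP1 and MTC7 for GUA1 and ABF2 and AFB1 for GUK1. Distances were at most 0.0423 but for GUA1, with 0.113 and 0.128, and 2 libraries define a level and not a pattern.

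The promoters, taken as 250 bases before and 50 after the start of the coding sequence, were searched on both strands for TGACTC, the core of Gcn4 and Bas1 sites, and for TATAAA, the core of many TATA boxes. The letters of the motifs do not allow a match of one to overlap a match of the other. TGACTC was in 0 of 5 windows and in 7.97% of all windows of this length. TATAAA was in 2 of 5, those of GUA1 and IMD4, and in 45.2% of all. In GUA1 it begins at base -137 and in IMD4 at base -204 from the start codon. These letters in a window are a description and not a site.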

How the data were processed

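Per the labels and the methods, 50-base read pairs were aligned to sacCer3 and counted by featureCounts 2.0.3. The deposited values are named FPKM, but they are whole-number counts per gene with unequal totals, the annotation used by the authors, the strand setting and the treatment of reads with several matches being not given in the sources used here. Of 6692 genes, 6007 matched an R64 coding sequence by name, and the other 685 held 0.281% and 0.292% of counts. FPKM was count per kilobase of merged coding sequence and per 1000000 counts. There is 1 group, so no test was made, and the difference between the 2 libraries is the spread. The study calls its replicates biological. Uniqueness of 50-base windows was counted over both strands of the genome, and sequences were aligned with blastn 2.17.0 and mafft 7.526. edgeR 4.0.16 and DESeq2 1.42.0 gave alternative scaling only. Scripts were tested on simulated data. The members and lists were chosen with earlier results of these data known, and named genes were the members, the IMD2 copy and neighbours, the nearest levels and the highest and lowest of each list group.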

Additional observations from a re-analysis of the deposited data

How the results depend on the processing

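Of 132 values recomputed under alternatives, 111 stayed within a set limit and 21 moved further, 4 of them percentiles and 3 of them replicate differences. The limit was 1 SD of the replicates for levels, percentiles, ratios and shares. For replicate differences it was the distance from the middle to the end of their counting interval, and for the count of list genes a fold limit. The 111 include values that could not move further by construction. These are ratios and shares under either scaling, ratios without IMD2 when the copy's counts were added, and levels, ratios and shares with either replicate left out. The order IMD2, IMD4, IMD3, GUA1, GUK1 held under 6 alternatives (both scalings, unique windows as length, the copy's counts added to IMD2 and either replicate left out), but GUA1 passed GUK1 when its counts were divided by its length free of other reading frames. TMM or size factor scaling moved no level by over 1 SD, and it cannot move a ratio or share taken within a library. With windows found once in the genome as length, IMD2 stood at 89.3, IMD3 at 354, IMD4 at 189, GUA1 at 419 and GUK1 at 505 FPKM. The ratios were then 3.96 for IMD3 to IMD2, 2.12 for IMD4 to IMD2, 1.87 for IMD3 to IMD4, 1.53 for the summed IMD genes to GUA1 and 1.25 to GUK1, and the shares 14.1% for IMD2 and 29.9% for IMD4. That length counts start positions, so it also shortens genes without shared windows. It also scores reads singly, although a mate can place a pair. With all GUA1 counts over that free length, an alternative chosen after seeing the data that assumes no read from the rest was counted, GUA1 had an upper value of 536 FPKM, 1.16 times GUK1, and the summed IMD genes stood at 0.971 times it. Leaving out each replicate moved no level, ratio or share further than 1 SD, by construction with 2 libraries. It moved no percentile further than 1 SD either, which was not fixed by construction. The count of 25 list genes above the median held with unique windows as length, with genes of at least 10 counts only and without either replicate. No paired analysis was possible because there is 1 group.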
